A study of Mus musculus with 12 samples.

Results

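GFP-negative colonies were set against leukemia cells, on 3 arrays of each group, which are 6 of the 12 arrays of the study. The members were taken by their titles: the arrays titled GFP- colonies and the arrays titled Notch-1 leukemia-1. Both groups carry the mouse genotype R26rtTA;Col1a12lox-4F2A, in which a transactivator expressed from the Rosa26 locus drives, in the presence of doxycycline, a cassette of the reprogramming factors Oct4, Sox2, Klf4 and c-Myc placed at Col1a1. The leukemia cells therefore carry the cassette as well. The colonies were derived from leukemia cells and are described as reprogrammed, with GFP- as their cell marker, and the leukemia cells came from spleen. The labels do not say what GFP reports, whether doxycycline was present at harvest, or whether replicates came from separate animals or platings; all 3 leukemia titles share the name leukemia-1. The colony titles do not name the leukemia that the colonies came from. The titles call the arrays of each group biological replicates, without saying more. If the arrays of a group share a source, the p-values measure only the spread between these arrays, which may be technical. The study also holds 3 arrays of GFP-positive colonies and 3 of established iPS cells, which enter only where stated.

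T-cell acute lymphoblastic leukemia arises from T cell progenitors, and activating lesions of NOTCH1 are a frequent driver. Cleaved Notch1 binds the DNA-binding protein Rbpj and turns on genes such as Hes1, Dtx1, Ptcra and Myc, which in the thymus accompany commitment to the T lineage and the assembly of the pre-T cell receptor. Reprogramming with Oct4, Sox2, Klf4 and c-Myc turns off the genes of the starting cell, passes through an epithelial state marked by E-cadherin and keratins, and at its end turns on the cell's own pluripotency genes such as Nanog.

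Expression was measured on Affymetrix arrays, with total RNA as starting material, and values are the authors' log2 RMA values, so a difference of 1 is a 2-fold difference. Array medians lay between 5.76 and 5.83 over the 12 arrays. The colony arrays differed widely from each other: their correlations over 22180 genes were 0.933 between replicates 1 and 2, 0.887 between replicates 1 and 3, and 0.970 between replicates 2 and 3, against 0.994 between leukemia arrays. The median SD per gene was 0.245 over the colony arrays and 0.105 over the leukemia arrays. The number of arrays limits the precision of every value.

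Marker genes were used to check the labels. The 8 measured T lineage markers averaged 5.65, 5.24 and 5.51 on GFP-negative colony arrays 1, 2 and 3, and 10.37, 10.33 and 10.34 on the leukemia arrays, as the leukemia label says. The 8 pluripotency markers averaged 6.10, 9.23 and 9.64 on the colony arrays and 5.75, 5.44 and 5.32 on the leukemia arrays. Colony array 1 thus lay within 1 unit of leukemia for the pluripotency markers, and arrays 2 and 3 lay far above. The 6 epithelial markers averaged 11.46, 10.74 and 9.11 on the colony arrays, all above the 5.62, 5.67 and 5.59 on the leukemia arrays. The 8 fibroblast or feeder cell markers averaged 5.83, 5.49 and 5.10 on the colony arrays and 5.34, 5.23 and 5.15 on the leukemia arrays, and none of them passed the test. Since colony array 1 stands apart, results that rest on it are given with and without it.

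Across 22180 genes, limma's moderated test on the 6 arrays with Benjamini-Hochberg adjustment called 1364 genes higher (6.15%) and 1936 lower (8.73%) in GFP-negative colonies than in leukemia at an adjusted p under 0.05. Of these, 892 were at least 2-fold higher and 976 at least 2-fold lower, and the median difference over all genes was -0.01. All 3 colony arrays lay above all 3 leukemia arrays for 3630 genes (16.4%) and below them for 4630 genes (20.9%), and every called gene was among these. These shares over all genes are the base for the counts of each list below. Over 2-fold above the leukemia mean were 2073 genes on colony array 1, 1785 on array 2 and 1942 on array 3. Without colony array 1 the same test called 3273 genes higher and 3435 lower, and all 1364 and 1936 calls were kept. These larger counts are the base for list counts given without colony array 1. Leaving out any leukemia array, which removes 1 of only 3, left 575 to 595 genes higher and 840 to 888 lower.

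Cd3g, a signalling chain of the T cell receptor complex, stood at 5.01, 4.21 and 5.19 on the colony arrays and at 12.02, 12.05 and 12.08 on the leukemia arrays. It was 151.9-fold lower, a log2 difference of -7.25 ± 0.26 (SE, adjusted p = 4.09e-05). The other 11 of the 12 largest falls were Prss2, a trypsinogen whose gene lies in the T cell receptor beta locus, Slamf6, Cd3d, Cd8b1, Ikzf3, Trav9d-3, Ngp, Itga4, S100a8, Klk1b22 and Camp, at -6.55 to -5.92. Nid1, which encodes the basement membrane linker nidogen-1, stood at 11.72, 11.96 and 10.45 on the colony arrays against 3.99, 4.42 and 4.44 on the leukemia arrays. It was 136.6-fold higher, a difference of 7.09 ± 0.41 (adjusted p = 0.000221). Bex1, a brain-expressed X-linked gene, was nearly level over the colonies, with 12.48, 12.43 and 12.42 against 5.89, 5.06 and 5.23 in leukemia, a difference of 7.05 ± 0.22 (adjusted p = 3.28e-05). The other 10 largest rises were Enah, an actin regulator, Tdgf1, Fgfbp1, Cdh1, Krt18, Fn1, Arhgap32, Me1, an NADP-dependent malic enzyme, Cldn4 and Prrg4, at 6.61 to 5.05. Among these 24 genes all calls were kept whichever array was left out, except that of Cldn4, which was lost without any of the leukemia arrays. Other probe sets of the same genes ran the same way, most with smaller differences. They had 4.18 for Nid1, 3.07 for Cdh1, 1.92 for Krt18, -2.81 for Slamf6 and -6.02 to -0.547 for Trav9d-3.

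**Figure D1:**
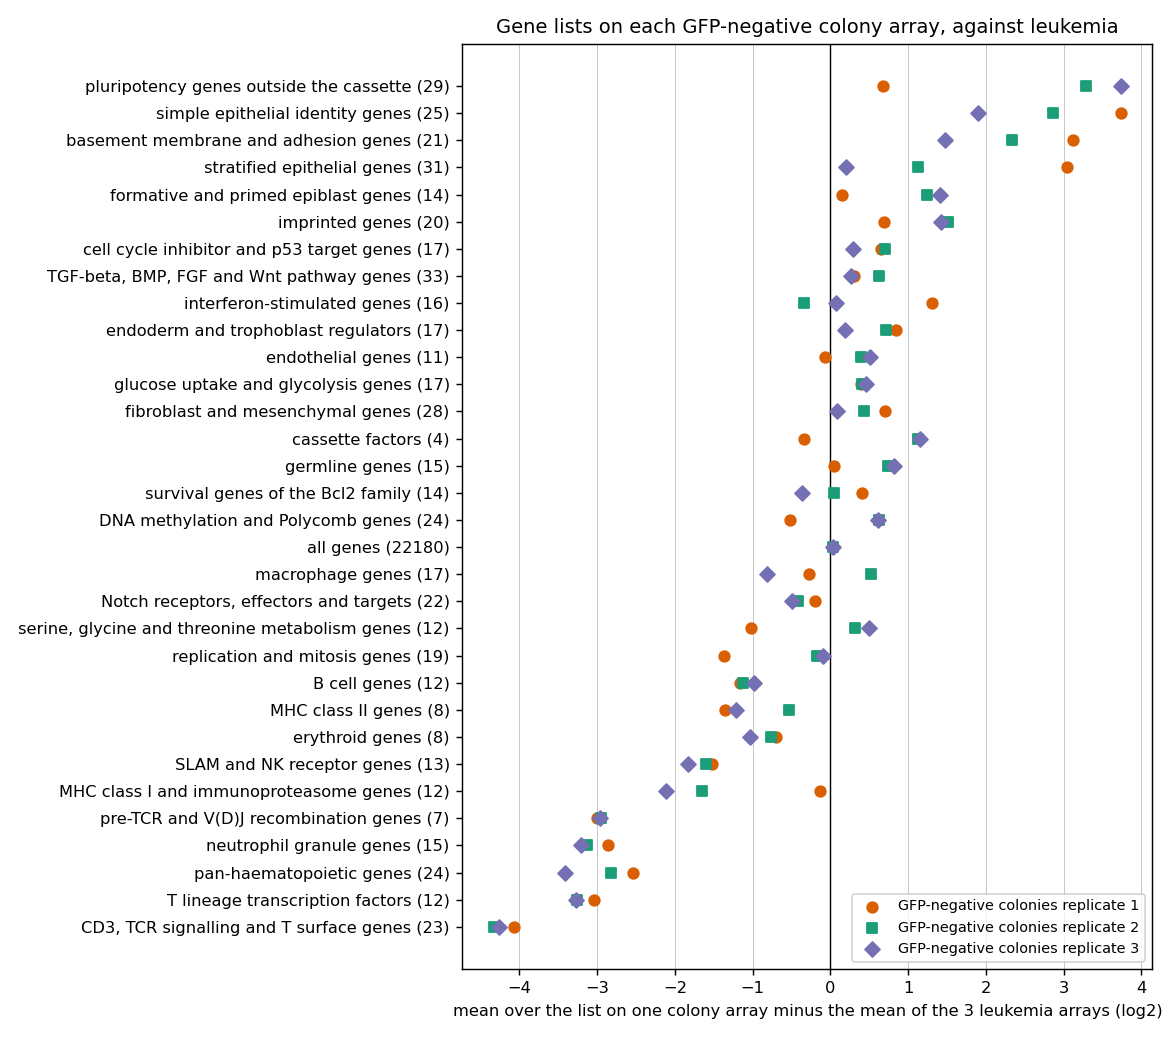
Mean over each gene list on each GFP-negative colony array minus the mean of the 3 leukemia arrays (horizontal axis, log2), with the number of measured genes in brackets; circles, squares and diamonds are colony replicates 1, 2 and 3. The T lineage lists lie together at the left on all 3 colony arrays, while the pluripotency, stratified epithelial and MHC class I lists are split, with replicate 1 apart from replicates 2 and 3.

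The T cell receptor programme was lower on every colony array. All 23 measured genes of the list of CD3 chains, receptor signalling molecules and T cell surface proteins fell, with a median difference of -4.22 against -0.01 over all genes, and for all 23 the groups did not overlap. The list mean was 5.62, 5.36 and 5.42 on the colony arrays and 9.69, 9.74 and 9.65 on the leukemia arrays. Leaving out 1 array left 21 to 23 genes called. In bulk RNA, fewer cells of a type and less RNA per cell cannot be told apart. Cd3d, another receptor chain, had 5.82, 5.25 and 4.72 in colonies and 11.62, 11.75 and 11.66 in leukemia, a difference of -6.41 ± 0.27 (adjusted p = 7.34e-05). Cd8b1, the beta chain of the CD8 coreceptor, had 5.18, 5.05 and 5.65 in colonies and 11.54, 11.52 and 11.50 in leukemia, a difference of -6.23 ± 0.17 (adjusted p = 2.69e-05). Cd4, the other coreceptor, fell by 3.12, so the leukemia arrays carried transcripts of both coreceptors above the colony arrays. The signalling adaptors Lat, Fyb and Themis fell by 4.55, 5.43 and 4.39, and the kinase Zap70 by 3.56.

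Cd3e, the third CD3 chain, stood apart on 1 colony array. It had 9.83, 6.13 and 6.04 in colonies and 11.86, 11.83 and 11.92 in leukemia. Colony array 1 thus lay about 2 units below leukemia, where Cd3d and Cd3g on the same array lay about 6 or more below. The difference was -4.53 ± 1.01 (adjusted p = 0.0324), and the call was lost without any array other than colony array 1.

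The upstream windows of Cd3g and Cd3d, which move together in these data, are shown because the 2 genes are read in opposite directions from neighbouring starts on chromosome 9. The sequences run from 250 bases before to 50 after each start, from RefSeq on GRCm38.p6, and 854 bases lie between the windows. Capitals mark CAGNTG on either strand, the E-box read by E proteins such as Tcf12 and the product of Tcf3.
Cd3g, chr9:44980382-44980681, minus strand: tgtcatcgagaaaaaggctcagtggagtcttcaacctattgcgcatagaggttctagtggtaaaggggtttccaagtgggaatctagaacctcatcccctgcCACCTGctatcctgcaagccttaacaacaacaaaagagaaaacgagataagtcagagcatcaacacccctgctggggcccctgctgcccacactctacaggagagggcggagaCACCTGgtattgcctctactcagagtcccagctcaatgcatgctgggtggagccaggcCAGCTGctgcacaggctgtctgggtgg
Cd3d, chr9:44981536-44981835, plus strand: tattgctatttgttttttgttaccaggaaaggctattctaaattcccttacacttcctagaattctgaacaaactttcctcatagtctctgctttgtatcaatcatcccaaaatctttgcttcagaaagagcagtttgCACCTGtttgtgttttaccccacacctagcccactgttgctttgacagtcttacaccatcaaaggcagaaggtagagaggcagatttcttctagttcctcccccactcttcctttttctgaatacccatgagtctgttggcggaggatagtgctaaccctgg
The Cd3g window holds 3 matches, starting at bases 103, 216 and 274 of the printed run, and the Cd3d window holds 1, starting at base 139. The same letters occur in 51.4% of all 32851 promoter windows. Counted by gene, with a match in any window of the gene, they occur in 11 of the 14 T cell surface list genes with a window. For the simple epithelial list they occur in 13 of the 15 genes with a window. A gene can have more than 1 window, so shares of genes and of windows are not like measures, and the match is a description of these windows only.

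**Figure D2:**
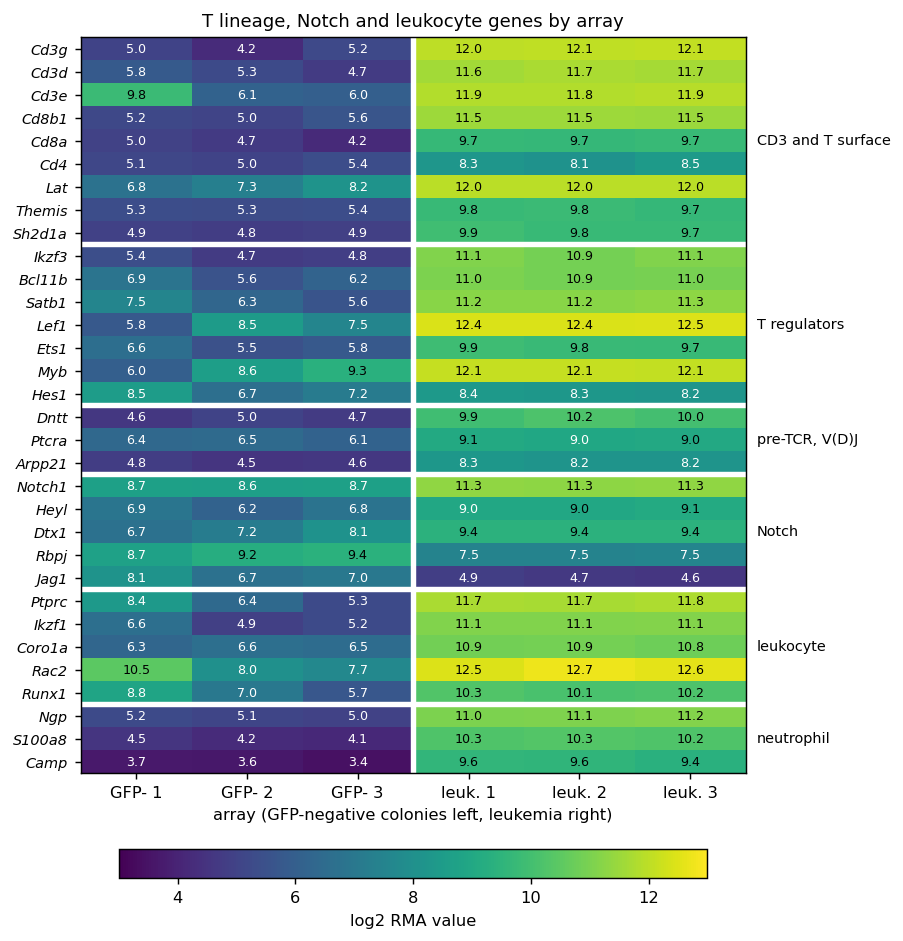
Log2 RMA values (colour and printed number) of T lineage, Notch, leukocyte and neutrophil genes on each array, GFP-negative colonies left and leukemia right. Nearly all rows are dark at the left and bright at the right; Cd3e, Hes1, Ptprc, Rac2 and Runx1 are brightest among the colonies on array 1, and Rbpj and Jag1 run the other way.

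Transcription factors of the T lineage fell with the surface genes. Of 12 measured, 11 fell and none rose, with a median difference of -3.47, and the list mean was 6.81, 6.59 and 6.58 on the colony arrays against 9.89, 9.82 and 9.82 on the leukemia arrays. Ikzf3, a zinc finger factor of lymphocytes, had 5.40, 4.73 and 4.85 in colonies and 11.10, 10.92 and 11.10 in leukemia, a difference of -6.05 ± 0.20 (adjusted p = 3.28e-05). Satb1, a chromatin organiser of thymocytes, fell by 4.76 and Bcl11b, which holds cells in the T lineage, by 4.76 as well. Lef1, a Wnt effector with a role in T cell development, had 5.79, 8.48 and 7.53 in colonies and 12.44, 12.41 and 12.46 in leukemia, a difference of -5.17 ± 0.64 (adjusted p = 0.00412). The colony arrays were spread over more than 2 units for Lef1, yet all lay far below leukemia. Myb, a haematopoietic proto-oncogene, had 6.03, 8.60 and 9.34 in colonies and 12.12, 12.11 and 12.10 in leukemia, and its call (-4.12 ± 0.81, adjusted p = 0.0217) was lost without colony array 2 or any leukemia array. Another probe set of Myb had a difference of -1.24. The exception was Hes1, with 8.52, 6.66 and 7.17 in colonies and 8.38, 8.31 and 8.22 in leukemia, where colony array 1 lay above all leukemia arrays.

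All 7 measured genes of the pre-T cell receptor and V(D)J recombination list fell, with a median difference of -2.69. Dntt, the terminal transferase that adds bases at V(D)J joints, had 4.61, 5.02 and 4.74 in colonies and 9.94, 10.20 and 10.01 in leukemia, a difference of -5.26 ± 0.15 (adjusted p = 2.69e-05). Ptcra, the pre-T alpha chain, had 6.39, 6.46 and 6.14 in colonies and 9.09, 8.95 and 9.03 in leukemia, a difference of -2.69 ± 0.13 (adjusted p = 9.78e-05). For both genes the colony arrays lay within 0.5 units of each other and far below leukemia. Lig4 and Xrcc4, which seal broken DNA ends in many cell types, fell by 1.54 and 0.92.

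The Notch pathway moved in parts rather than as a whole. Of 22 measured receptors, ligands, effectors and targets, 3 rose and 6 fell, and the median difference was -0.23. Notch1 itself had 8.67, 8.64 and 8.68 in colonies and 11.33, 11.31 and 11.33 in leukemia, a difference of -2.66 ± 0.09 (adjusted p = 3.95e-05). The values do not tell the transcript of the resident gene from that of any introduced Notch1 form, since the labels do not describe how the model was made. Among targets, Ptcra fell as above, Heyl fell by 2.40, Dtx1 fell by 2.09, Myc fell by 1.65 and Hes5 fell by 0.89. Dtx1 had 6.74, 7.18 and 8.11 in colonies and 9.44, 9.43 and 9.42 in leukemia. The calls of Dtx1 and Myc were lost without any leukemia array, and that of Hes5 without leukemia array 1 or 2. Another probe set of Dtx1 had a difference of -0.455, and another of Hes5 ran in the opposite direction. Hes1 and Nrarp, also direct targets, did not pass the test, and for both the groups overlapped. The genes that rose were Jag1, a Notch ligand, by 2.58, Rbpj, the DNA-binding partner of cleaved Notch, by 1.61, and Notch4, a receptor of endothelium, by 0.94, with a call lost without any leukemia array. Rbpj had 8.71, 9.21 and 9.39 in colonies and 7.47, 7.47 and 7.54 in leukemia, so every colony array lay above every leukemia array. In this list leaving out 1 leukemia array left 2 genes higher and 3 or 4 lower. Leaving out colony array 1 gave 6 and 8, beside 3273 and 3435 of all 22180 genes.

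Genes of blood cells in general fell as well, but less evenly over the colony arrays. Of 24 measured pan-haematopoietic genes 22 fell and none rose, with a median difference of -3.00, and the list mean was 6.90, 6.61 and 6.02 on the colony arrays and 9.45, 9.44 and 9.42 on the leukemia arrays. Ptprc, the leukocyte antigen CD45, had 8.37, 6.43 and 5.26 in colonies and 11.75, 11.69 and 11.76 in leukemia, a difference of -5.04 ± 0.74 (adjusted p = 0.00753). Ikzf1, a lymphoid zinc finger factor, had 6.64, 4.89 and 5.24 in colonies and 11.11, 11.09 and 11.13 in leukemia, a difference of -5.52 ± 0.44 (adjusted p = 0.000751). Rac2, the GTPase of blood cells, had 10.48, 8.02 and 7.68 in colonies and 12.45, 12.74 and 12.58 in leukemia. In all 3 genes colony array 1 was the highest of the colonies. Runx1, a regulator of blood formation, had 8.83, 7.02 and 5.72 in colonies and 10.28, 10.13 and 10.19 in leukemia, and its call (-3.01 ± 0.73, adjusted p = 0.0425) was lost, as was that of Rac2, without colony array 2 or any leukemia array. By contrast Coro1a and Cytip, an actin regulator and an adhesion adaptor of leukocytes, fell by 4.36 and 3.65 with colony arrays within 0.4 units of each other. Leaving out 1 array left 13 to 24 of the 24 genes called lower.

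Most neutrophil, B cell and erythroid genes of the lists, which mark other cells of the spleen, were also lower in the colonies than in leukemia. Of 15 neutrophil granule genes 13 fell, with a median difference of -2.88 and list means of 5.37, 5.10 and 5.02 in colonies against 8.15, 8.30 and 8.23 in leukemia. Ngp, a neutrophil granule protein, had 5.24, 5.08 and 4.96 in colonies and 11.04, 11.07 and 11.15 in leukemia, a difference of -6.00 ± 0.12 (adjusted p = 2.26e-05), and S100a8, a subunit of calprotectin, fell by 5.99. Camp, the cathelicidin precursor, fell by 5.92. Of 12 B cell genes 10 fell, with a median difference of -0.67, and 4 were over 2-fold below the leukemia mean on each colony array. Ighm, the mu heavy chain, led with 7.29, 7.0 and 7.08 in colonies and 10.71, 10.70 and 10.90 in leukemia, a fall of 3.65. Other probe sets of Ighm had differences of -6.44 to -0.226. Leaving out 1 leukemia array left 4 or 5 of the B cell genes called, and leaving out colony array 2 left 5. Of 8 erythroid genes 6 fell, among them Car1, a carbonic anhydrase of red cells, by 2.71 and Slc4a1, the band 3 anion exchanger, by 2.27. Car2, also of that list, ran the other way on every colony array and did not pass the test. It had 10.72, 10.28 and 7.87 in colonies and 7.03, 7.30 and 7.14 in leukemia. Which cells of the spleen samples these transcripts came from was not tested. Of 13 SLAM and natural killer receptor genes 7 fell, led by Slamf6, a SLAM receptor of lymphocytes, with 5.21, 4.92 and 4.79 in colonies and 11.46, 11.55 and 11.53 in leukemia, and by Gzma, a granzyme, which fell by 4.44.

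MicroRNA genes with a probe set of their own numbered 478, host genes left out, and 4 rose and 29 fell, shares below those over all genes. They were looked at after their values were seen, and which part of the transcript each probe set reads is not given in the sources used here. The members described next are shown with the mature sequence from RefSeq on GRCm38.p6, with the seed, bases 2 to 8, in capitals, grouped by shared seed. The first group holds the 5' arms of the miR-181 genes, which tune T cell receptor sensitivity in thymocytes. The second holds let-7 genes, which Lin28 proteins keep from maturing in pluripotent cells, and the last pair comes from the blood cell gene Mir142.
mmu-miR-181a-5p: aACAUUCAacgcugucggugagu
mmu-miR-181b-5p: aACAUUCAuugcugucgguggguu
mmu-miR-181c-5p: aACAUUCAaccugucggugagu
mmu-let-7b-5p: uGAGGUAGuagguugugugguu
mmu-let-7d-5p: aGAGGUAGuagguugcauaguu
mmu-let-7g-5p: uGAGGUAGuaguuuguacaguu
mmu-miR-142a-5p: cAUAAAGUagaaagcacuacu
mmu-miR-142a-3p: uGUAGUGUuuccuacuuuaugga

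Of the 6 miR-181 genes 3 fell. Mir181b-1, on chromosome 1 beside Mir181a-1, had 2.91, 3.08 and 3.44 in colonies and 7.10, 6.54 and 6.46 in leukemia, a difference of -3.56 ± 0.23 (adjusted p = 0.000334). Mir181a-1 had 2.91, 2.67 and 2.90 in colonies and 4.70, 4.23 and 4.44 in leukemia, a difference of -1.63 ± 0.16 (adjusted p = 0.00166). Mir181c fell by 1.36, with the call lost without any leukemia array. The 5' arms printed for these genes share the seed ACAUUCA, by which they were grouped. Mir142 had 6.51, 7.01 and 6.66 in colonies and 9.33, 9.29 and 9.21 in leukemia, a difference of -2.55 ± 0.15 (adjusted p = 0.000269), and no colony array came near the leukemia arrays. Of 11 let-7 genes 3 fell, Mirlet7b by 1.67, Mirlet7d by 0.97 and Mirlet7g by 0.59, and the calls of Mirlet7d and Mirlet7g were lost without any leukemia array. The rises were Mir692-1 at 11.52, 11.61 and 11.73 in colonies against 10.02, 9.91 and 9.89 in leukemia, Mir872, Mir365-1 and Mir467e, and the call of Mir872 was lost without any leukemia array. Some microRNA genes followed the split between colony arrays and did not pass the test: Mir19a had 2.88, 7.19 and 8.09 in colonies and Mir363, of the related miR-106a cluster, had 3.32, 6.48 and 9.44, against leukemia values near 6 for both. Without colony array 1 the test called 30 microRNA genes higher and 50 lower, beside 3273 and 3435 of all 22180 genes. Without 1 leukemia array it called 3 higher and 11 or 12 lower. Without colony array 2 the counts were 10 and 23, and without colony array 3 they were 7 and 38.

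**Figure D3:**
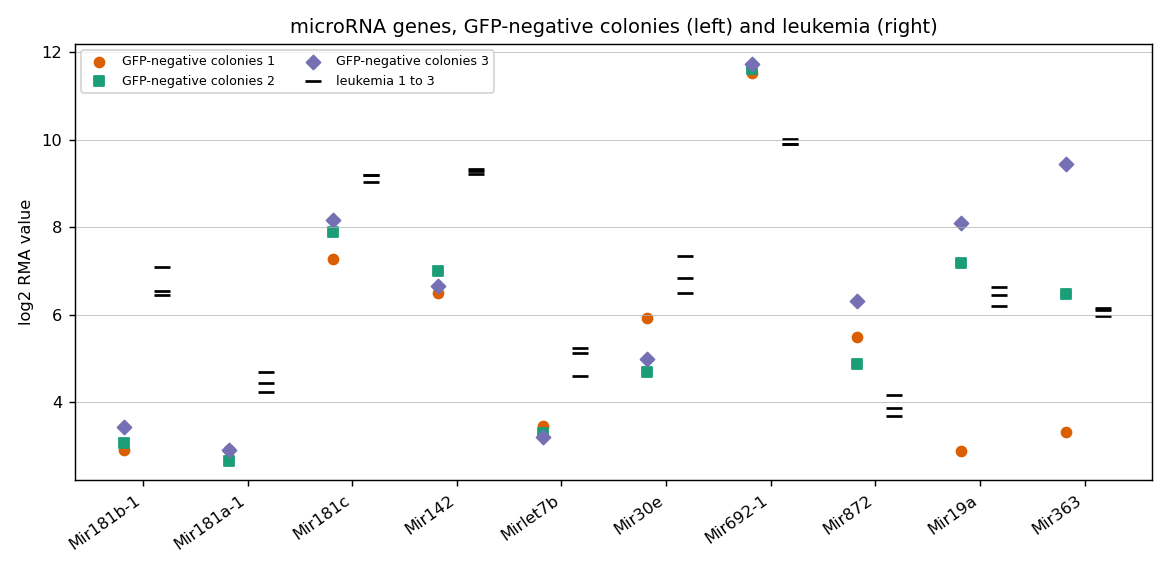
Log2 RMA values of 10 microRNA genes; coloured points to the left of each position are GFP-negative colony replicates 1 to 3 and black dashes to the right are the 3 leukemia arrays. The miR-181 genes, Mir142 and Mirlet7b lie below leukemia on every colony array, while Mir19a and Mir363 lie below it on replicate 1 and above it on replicates 2 and 3.

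Pluripotency genes separated the colony arrays. The list mean of 29 such genes outside the cassette was 6.47, 9.09 and 9.53 on colony arrays 1, 2 and 3, against 5.90, 5.74 and 5.75 on the leukemia arrays. More than 2-fold above the leukemia mean were 7 genes on colony array 1, 26 on array 2 and 27 on array 3. In the test 7 genes rose and none fell, with a median difference of 2.43, and without colony array 1 the count of genes called higher was 28. Leaving out any other array left 4.

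Tfcp2l1 and Klf5, factors of the naive state, were raised on all colony arrays. Tfcp2l1 had 8.72, 9.49 and 9.84 in colonies and 4.85, 4.98 and 4.27 in leukemia, a difference of 4.65 ± 0.33 (adjusted p = 0.0005). Klf5 had 9.67, 9.86 and 10.02 in colonies and 5.98, 6.22 and 6.80 in leukemia, a difference of 3.52 ± 0.23 (adjusted p = 0.000363). Tdgf1, the Nodal coreceptor Cripto, had 9.75, 11.82 and 12.03 in colonies and 5.35, 4.79 and 5.17 in leukemia, a difference of 6.10 ± 0.61 (adjusted p = 0.00186). Sall1 rose by 4.04, and these calls were kept whichever array was left out. Fbxo15, a pluripotency reporter gene, rose by 4.76 with 6.01, 9.66 and 10.18 in colonies and 4.10, 3.79 and 3.68 in leukemia. The calls of Fbxo15, Sall4 and L1td1 were each lost without any array other than colony array 1. Another probe set of Sall4 had a difference of 0.237, against 2.77 for the one used.

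The genes most often used to define the end state did not pass the test, and on most of them colony array 1 lay near leukemia. Nanog, the homeodomain factor, had 5.07, 11.35 and 11.85 in colonies and 4.99, 4.32 and 4.85 in leukemia, a difference of 4.70 ± 1.77 (adjusted p = 0.143). Nr0b1, an orphan nuclear receptor, had 5.14, 10.89 and 12.02 in colonies and 4.36, 4.58 and 4.96 in leukemia. Sox2 had 4.83, 10.07 and 10.69 in colonies and 4.50, 4.33 and 5.25 in leukemia. Zfp42, Dppa2, Dppa4 and Utf1, all genes of the pluripotent state, showed the same split, with colony array 1 at 6.26, 6.25, 5.85 and 5.20 and colony arrays 2 and 3 at 9.34 to 11.30. Esrrb, a nuclear receptor of the naive state, did not pass the test either, with 4.94, 6.80 and 7.19 in colonies and 5.28, 5.52 and 5.19 in leukemia.

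The Nanog window is shown because on colony array 1 this gene was among those furthest below the other colony arrays. It is the downstream of 2 overlapping RefSeq windows of the gene, with capitals on a composite of TTTGCAT, an octamer core bound by Oct4, any next base, and the Sox core ACAATG.
Nanog, chr6:122707315-122707614, plus strand: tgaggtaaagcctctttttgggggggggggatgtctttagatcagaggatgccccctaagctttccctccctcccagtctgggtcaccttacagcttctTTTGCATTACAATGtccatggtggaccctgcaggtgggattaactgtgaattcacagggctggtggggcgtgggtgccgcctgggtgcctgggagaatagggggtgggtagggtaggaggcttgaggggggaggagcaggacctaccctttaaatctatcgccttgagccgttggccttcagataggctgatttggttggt
The match covers bases 100 to 113 of the printed run. Searched on both strands, this composite occurs in 2 of the 32851 windows (0.00609%), and both belong to Nanog. The letters searched are those of the Nanog site itself apart from the free base. An exact search misses composites spelled otherwise, so the count does not show how rare such sites are. The octamer core alone, TTTGCAT, occurs in 4.63% of all windows and in 2 of the 19 pluripotency list genes with a window. No match says only that these letters are not in a window.

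Of the cassette factors, Pou5f1 (Oct4) had 6.99, 7.59 and 7.33 in colonies and 6.62, 6.31 and 6.67 in leukemia, a rise of 0.77 (adjusted p = 0.047) whose call was lost without any array other than colony array 1. Klf4 had 7.64, 7.64 and 8.37 in colonies and 8.21, 8.37 and 8.22 in leukemia, and the groups overlapped. Myc had 8.88, 8.88 and 7.91 in colonies and 10.24, 10.18 and 10.19 in leukemia, a fall of 1.65 (adjusted p = 0.0124) whose call was lost without any leukemia array. Whether the probe sets read the cassette's transcripts is not given in the sources used here.

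Genes of the formative and primed epiblast followed the pluripotency split. Of 14, only Pou3f1 rose and none fell, beside 6.15% and 8.73% of all genes. The call of Pou3f1 was lost without any array other than colony array 1. Without colony array 1, 10 rose, beside 3273 of all 22180 genes. Otx2, a homeodomain factor of the epiblast, had 6.39, 9.38 and 10.34 in colonies and 6.31, 6.01 and 6.25 in leukemia. Dnmt3b, a de novo DNA methyltransferase, had 7.36, 10.38 and 10.25 in colonies and 7.29, 7.42 and 7.59 in leukemia, and Fgf5 had 4.76, 7.01 and 7.14 against 4.82, 4.69 and 4.78. For all 3 genes colony array 1 lay at the leukemia level. Of 15 germline genes only Ddx4 was called higher, beside 6.15% of all genes. It rose by 0.45 at low values, with a call lost without any array other than colony array 1. Dazl, Mael and Tex19.1, which are also active in embryonic stem cells, had 7.37 to 9.99 on colony arrays 2 and 3 and 4.84 to 6.50 on array 1.

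**Figure D4:**
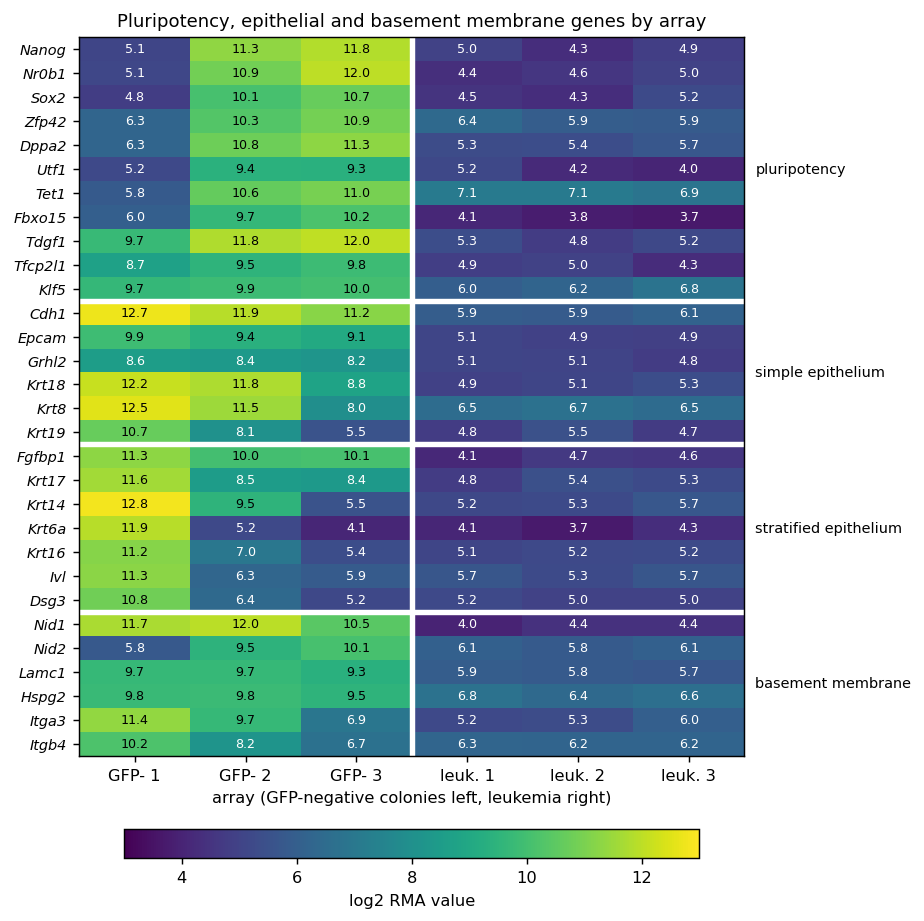
Log2 RMA values (colour and printed number) of pluripotency, epithelial and basement membrane genes on each array, GFP-negative colonies left and leukemia right. Nanog to Utf1 are bright on colony arrays 2 and 3, Krt14 to Dsg3 are brightest on colony array 1, and Cdh1, Epcam, Fgfbp1, Nid1, Lamc1 and Hspg2 are bright on all 3.

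Simple epithelial identity was shared by all colony arrays, with its level in the opposite order. Of 25 measured genes 14 rose and none fell, the median difference was 2.29, and for 22 genes all colony arrays lay above all leukemia arrays. The list mean was 9.54, 8.66 and 7.70 on colony arrays 1, 2 and 3 and 5.82, 5.78 and 5.81 on the leukemia arrays. Cdh1, E-cadherin, had 12.73, 11.91 and 11.21 in colonies and 5.93, 5.85 and 6.14 in leukemia, a difference of 5.98 ± 0.37 (adjusted p = 0.000297). Epcam, an epithelial adhesion molecule also present on pluripotent cells, had 9.90, 9.37 and 9.06 in colonies and 5.08, 4.95 and 4.88 in leukemia, a rise of 4.48. Grhl2, an epithelial transcription factor, rose by 3.42, the splicing factor Esrp1 by 4.50 and the junction protein Tjp1 by 4.83, with colony arrays in a narrow range in each case. Krt18, a keratin of simple epithelia, had 12.18, 11.79 and 8.81 in colonies and 4.92, 5.08 and 5.35 in leukemia, a difference of 5.81 ± 0.87 (adjusted p = 0.00822). Its partner Krt8 had 12.54, 11.55 and 7.96 against 6.54, 6.72 and 6.49 and did not pass the test (adjusted p = 0.0622). Krt19 had 10.69, 8.06 and 5.55 against 4.77, 5.50 and 4.72, so colony array 3 lay next to leukemia. Leaving out 1 array left 10 to 20 of the 25 genes called higher.

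Stratified epithelial genes, which build squamous layers such as epidermis, were high mainly on colony array 1. The list mean of 31 genes was 8.86, 6.93 and 6.01 on the colony arrays and 5.85, 5.79 and 5.80 on the leukemia arrays, with 19, 12 and 5 genes over 2-fold above the leukemia mean on arrays 1, 2 and 3. In the test 5 rose and 1 fell, and the count of rises was 1 to 9 when 1 array was left out. Krt14, a basal keratin, had 12.84, 9.52 and 5.54 in colonies and 5.17, 5.26 and 5.73 in leukemia. Krt6a, a keratin of activated epidermis, had 11.91, 5.22 and 4.09 against 4.09, 3.71 and 4.31, and Ivl, involucrin of the cornified envelope, had 11.28, 6.29 and 5.85 against 5.67, 5.26 and 5.69. None of these passed the test, and in all of them colony array 1 was the highest. Fgfbp1, an FGF carrier protein, was the exception, with 11.29, 9.99 and 10.08 in colonies and 4.13, 4.66 and 4.56 in leukemia, a difference of 6.00 ± 0.37 (adjusted p = 0.000298). Krt17 and Perp, a desmosome-associated p53 target, rose by 4.35 each, with calls lost without any leukemia array and, for Perp, without colony array 2. Ly6d, a surface protein of lymphoid progenitors and keratinocytes, fell by 3.79.

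**Figure D5:**
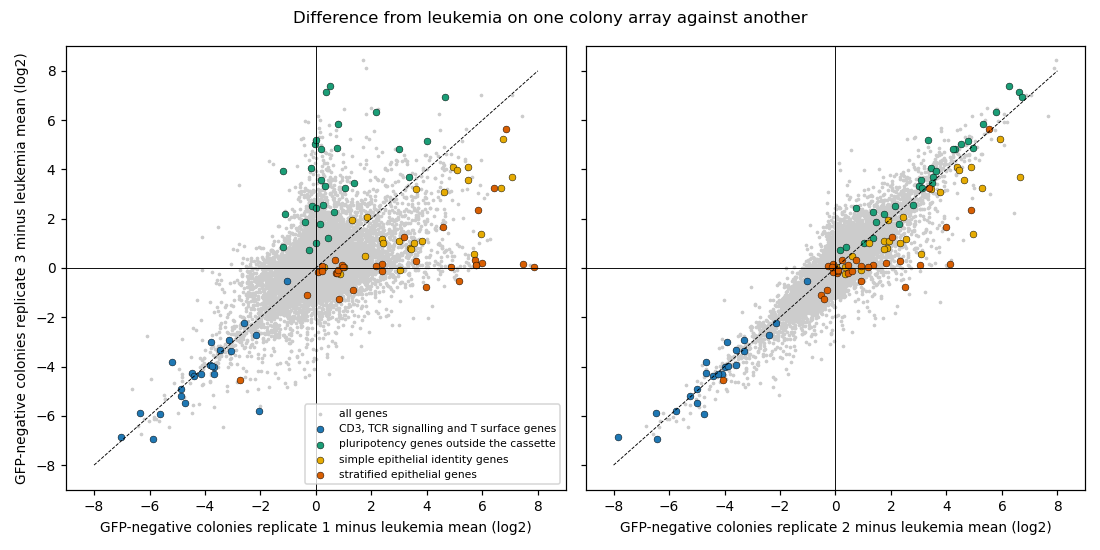
Each point is a gene: its difference from the leukemia mean on colony array 3 (vertical axis, log2) against that on colony array 1 (left panel) or array 2 (right panel); the dashed line marks equal differences and coloured points are 4 gene lists. T cell genes lie near the line in both panels, with Cd3e off it in the left panel, where most pluripotency genes lie near 0 on array 1 and most stratified epithelial genes near 0 on array 3.

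Basement membrane and adhesion genes rose without exception among the calls. Of 21 measured 10 rose and none fell, with a median difference of 2.12 and list means of 9.42, 8.63 and 7.77 in colonies against 6.31, 6.27 and 6.30 in leukemia. Besides Nid1, Lamc1, a laminin chain, had 9.70, 9.71 and 9.35 in colonies and 5.93, 5.81 and 5.73 in leukemia, a difference of 3.76 ± 0.14 (adjusted p = 4.93e-05). Lama5, another laminin chain, rose by 3.98 and Hspg2, perlecan, by 3.09. The second nidogen, Nid2, had 5.81, 9.47 and 10.08 in colonies and 6.07, 5.85 and 6.07 in leukemia, so colony array 1 lay just below the leukemia range. The integrins Itga3, Itgb4 and Itga2 ran the other way over the colonies, with 11.38, 10.21 and 9.70 on array 1 and 6.91, 6.71 and 5.29 on array 3. Of 28 fibroblast and mesenchymal genes 3 rose and 2 fell, beside 6.15% and 8.73% of all genes. Without colony array 1, 6 rose, beside 3273 of all 22180 genes. Fn1, fibronectin, had 10.04, 11.68 and 11.86 in colonies and 5.63, 5.60 and 5.58 in leukemia, a difference of 5.59 ± 0.48 (adjusted p = 0.000973), and Sparc, a matricellular protein, rose by 4.69. Col1a1, the main fibroblast collagen chain and the site of the cassette, had 7.54, 6.59 and 6.92 in colonies and 6.72, 6.88 and 6.57 in leukemia, and the groups overlapped. Thy1 and Zeb1, which T cells also express, fell by 3.88 and 2.59.

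Class I antigen presentation genes divided the colony arrays, with array 1 near leukemia in the list mean. The list mean of 12 MHC class I and immunoproteasome genes was 9.03, 7.51 and 7.05 in colonies and 9.12, 9.21 and 9.17 in leukemia. None was called, with 7 lying below leukemia on all colony arrays, beside 20.9% of all genes. Without colony array 1, 10 were called lower, beside 3435 of all 22180 genes. B2m, the shared light chain, had 11.92, 10.67 and 8.44 in colonies and 12.31, 12.27 and 12.19 in leukemia, and Psmb8, an immunoproteasome subunit, had 9.40, 7.14 and 6.29 against 10.39, 10.39 and 10.35. Of 16 interferon-stimulated genes 1 rose and 2 fell, beside 6.15% and 8.73% of all genes. On colony array 1, 10 of the 16 were over 2-fold above the leukemia mean, beside 2073 of all 22180 genes. The list mean was 8.15 on that array, against 6.51 and 6.91 on arrays 2 and 3 and 6.82 to 6.85 in leukemia. The median difference of that list was 0.29, and -0.31 without colony array 1. The calls of interferon-stimulated genes ranged from 0 to 3 higher and 1 to 6 lower when 1 array was left out. Of 8 MHC class II genes 2 fell, and 4 without colony array 2, with list means of 6.24, 7.06 and 6.38 in colonies and 7.59 on each leukemia array. H2-Ab1 had 6.90, 9.96 and 7.09 in colonies and 10.17, 10.19 and 10.16 in leukemia, with colony array 2 near leukemia.

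Macrophage genes had their highest list mean on colony array 2. The list mean of 17 was 6.43, 7.22 and 5.88 in colonies and 6.70 on each leukemia array. Of the 17 genes 1 was called higher and 2 lower, beside 6.15% and 8.73% of all genes. When 1 array was left out, 0 to 3 were called lower. C1qb, a complement subunit made by macrophages, had 6.31, 9.11 and 5.42 in colonies and 6.51, 6.63 and 6.26 in leukemia, and Csf1r, the receptor for their growth factor, had 8.98, 8.83 and 6.00 against 8.0, 8.0 and 8.10. Cd68, a lysosomal glycoprotein, was the member that rose, by 1.69, with 10.12, 9.99 and 9.91 in colonies and 8.39, 8.33 and 8.24 in leukemia. What part macrophages have in the values of colony array 2 was not tested.

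Cell cycle inhibitors and p53 targets changed in both directions, with 6 of 17 higher and 4 lower. The higher count was 3 or 4 without a leukemia array and 9 without colony array 3. Cdkn1a (p21) had 11.31, 10.79 and 9.62 in colonies and 7.16, 7.24 and 7.20 in leukemia, a difference of 3.37 ± 0.42 (adjusted p = 0.004). Sesn2, a stress-induced sestrin, rose by 2.32 and Ccng1, a cyclin induced by p53, by 1.85. Cdkn2c (p18), Cdkn1b (p27) and Cdkn2d (p19) fell by 1.94, 1.87 and 1.11. Of 19 replication and mitosis genes 3 fell, Mki67 by 1.37, Mcm6 by 0.95 and Pcna by 0.81, and none rose. The calls of Mcm6 and Pcna were lost without any leukemia array. Without colony array 1 the counts were 7 lower and 3 higher, beside 3435 and 3273 of all 22180 genes. The list mean was 9.09, 10.29 and 10.36 in colonies and 10.45, 10.47 and 10.46 in leukemia, and 13 of the 19 genes were over 2-fold below the leukemia mean on colony array 1, against 1 on each of arrays 2 and 3. Mcm3, a helicase subunit, had 8.45, 10.55 and 10.53 in colonies and 10.49, 10.49 and 10.55 in leukemia. Of 14 Bcl2 family genes none was called by limma, and Bcl2 had 9.75, 7.13 and 6.48 in colonies and 8.33, 8.43 and 8.39 in leukemia.

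Of 17 glucose uptake and glycolysis genes 6 rose and 2 fell, with a median difference of 0.195, and the falls numbered 0 without any leukemia array. The transporters led: Slc2a1 had 12.35, 12.69 and 12.28 in colonies and 9.41, 9.61 and 9.65 in leukemia, a difference of 2.88 ± 0.15 (adjusted p = 0.00015), and Slc2a3 rose by 2.50. The groups did not overlap for either, and the colony arrays were close together. Another probe set of Slc2a1, not used for the test, had a difference of 0.057. Hk2, a hexokinase, rose by 1.32 and Pkm, pyruvate kinase, by 0.84. In the list of 12 serine, glycine and threonine genes, Gldc, the glycine decarboxylase, rose by 3.30 with 7.04, 9.13 and 9.44 in colonies and 5.18, 5.09 and 5.43 in leukemia, and Phgdh, which starts serine synthesis, fell by 1.25. The call of Gldc was lost without colony array 2 or any leukemia array, and that of Phgdh without leukemia array 1. The list mean was 7.49 on colony array 1 against 8.82 and 9.0 on arrays 2 and 3 and 8.50 to 8.51 in leukemia.

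Among 24 DNA methylation and Polycomb genes 2 rose and 6 fell, beside 6.15% and 8.73% of all genes. Without colony array 1 the counts were 11 and 9, beside 3273 and 3435 of all 22180 genes. They were 1 and 2 without colony array 2, and 1 higher and 2 or 3 lower without a leukemia array. Tet1, a DNA demethylating enzyme of pluripotent cells, had 5.83, 10.63 and 10.96 in colonies and 7.09, 7.09 and 6.87 in leukemia, so colony array 1 lay below and the others above leukemia. Rnf2, a Polycomb ubiquitin ligase, rose by 1.09 with close colony arrays, and Cbx8 and Cbx2, Polycomb chromodomain proteins, fell by 1.14 and 0.94. Of 20 imprinted genes 8 rose and 1 fell, with a median difference of 0.825. Peg3 had 8.31 on colony array 1, 11.66 on array 3 and a higher value still on array 2, against 6.56, 6.23 and 6.44 in leukemia, a difference of 4.25 ± 0.96 (adjusted p = 0.0337) whose call was lost without any array other than colony array 1. Mest rose by 3.84 and Peg10 by 2.75, with calls kept whichever array was left out, and Kcnq1ot1, a silencing RNA, fell by 1.0, a call lost without leukemia array 2 or 3. Leaving out 1 array left 2 to 11 imprinted genes higher.

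Of 33 genes of the TGF-beta, BMP, FGF and Wnt pathways 6 rose and 5 fell, beside 6.15% and 8.73% of all genes. The counts were 4 to 13 higher and 3 to 6 lower when 1 array was left out. The receptors Fgfr1, Fgfr2 and Bmpr1a rose by 3.33, 2.68 and 2.24, and Smad7, an inhibitor of TGF-beta signalling, rose by 3.24. Fgfr1 had 10.04, 8.83 and 8.56 in colonies and 5.97, 5.53 and 5.95 in leukemia. Spry2, a feedback inhibitor of receptor kinases, had 7.30, 9.84 and 9.93 in colonies and 5.77, 5.90 and 5.52 in leukemia, and its call was lost without any array other than colony array 1. The falls were Lef1, Bmp7 by 1.52, Id3 by 1.49, Tgfbr1 by 1.28 and Axin2, a Wnt feedback gene, by 1.27. The calls of Id3 and Axin2 were lost without some of the leukemia arrays. Another probe set of Axin2 had a difference of -0.29. Of 17 endoderm and trophoblast regulators 3 rose and 1 fell, beside 6.15% and 8.73% of all genes. The rises were Plet1 by 3.29, Tfap2c by 1.42 and Lama1 by 0.77, and the fall was the shared T lineage gene Gata3. The call of Plet1 was lost without colony array 2 or any leukemia array. Those of Tfap2c and Lama1 were lost without any array other than colony array 1. Among 11 endothelial genes only Eng was called, higher by 1.80, beside 6.15% of all genes called higher. That call was lost without any array other than colony array 1.

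The widest gaps between colony arrays are given as a description. More than 2 units above both other colony arrays were 240 genes on array 1, 16 on array 2 and 32 on array 3, and more than 2 units below both were 244, 2 and 99 genes. On array 1 the highest was Prl3d3, a prolactin-family hormone of trophoblast giant cells, with 12.44 against 5.57 and 4.83 on arrays 2 and 3 and 4.54 to 4.79 in leukemia. Krt6a, Arg1, arginase 1, and Adgrg7 followed, and the lowest on array 1 were Zfp640, Nanog, Zfp979 and Rex2. Zfp640 had 4.68, 10.96 and 11.44 in colonies and 2.90, 3.02 and 3.07 in leukemia. On array 2 the highest were Serpinb9e, a serpin, Ms4a7, a macrophage membrane gene, Apol7c and Fam171b, and the lowest were Ifi27, Ddx60 and Rtp4, which interferon induces, and Car13. On array 3 the highest were Usp17lc, Sfrp4, DQ267101 and Olfr985, and the lowest were Anxa3, Krt14, Mal and Mboat1. Mal, a raft protein of T cells and polarised epithelia, had 12.34, 10.39 and 6.50 in colonies and 6.50, 6.08 and 6.59 in leukemia, so on array 3 it lay within the leukemia range.

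The other colony group and the established iPS cells give a scale for these lists, with no test made. The T cell surface list, at 5.36 to 5.62 on the GFP-negative arrays, averaged 5.40 to 6.13 in GFP-positive colonies and 5.33 to 5.57 in iPS cells. The pluripotency list had means of 6.47, 9.09 and 9.53 on the GFP-negative arrays, beside 8.09, 9.31 and 6.98 for GFP-positive colonies and 9.46 to 9.49 for iPS cells. Means of the stratified epithelial list were 8.86, 6.93 and 6.01 on the GFP-negative arrays, beside 8.28 to 9.25 for GFP-positive colonies and 6.45 to 6.49 for iPS cells. In the pluripotency list GFP-negative array 1 lay below every GFP-positive array, and in the stratified list it lay within their range.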

How the data were processed

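Total RNA from colonies and leukemia cells was hybridised to 1-colour Affymetrix arrays. The authors deposited log2 values made with RMA, per the submitters' processing notes; no source used here gives its version, the annotation build or array batches, and the values were not renormalized. Of 41345 probe sets, 23521 had 1 gene symbol, 1814 several and 16010 none here. Probe sets with 1 symbol were kept, the one with the highest mean over the 12 arrays per gene, which left 22180 genes; 21994 of them matched RefSeq by gene ID. No 2 arrays held identical values.

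The 3 GFP-negative colony arrays were set against the 3 leukemia arrays with limma 3.58.1 (lmFit and eBayes, R 4.3.3), 2-sided, with Benjamini-Hochberg adjustment over 22180 genes and a threshold of 0.05. The fit was tested on simulated data. Genes were named by rule: the 12 largest changes each way, up to 3 called members per list and its most variable member, 4 genes furthest above and 4 furthest below on each colony array, and 10 set genes such as Nanog and Cd3e; further members were picked after their values were seen. Members and the 31 lists (519 genes, 47 without a value and not analysed here) were chosen with earlier results of these data known. Replicate numbers did not pair the samples: deviations of same-numbered arrays correlated at -0.008 to 0.02.

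Alternatives were all 12 arrays in the fit, array weights, trended and robust moderation, cyclic loess, mean of probe sets, a filter on low values, a replicate block, a minimum change of 2-fold and leaving out each array. Promoter windows run from 250 bases before to 50 after a start.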

Additional observations from a re-analysis of the deposited data

How the results depend on the processing

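No called gene among those named by the rule changed direction under the alternatives run, while 10 of the 50 that were not called changed sign when 1 array was left out. With 1364 genes higher and 1936 lower as reported, the counts were 2001 and 2654 with all 12 arrays in the fit, 2966 and 3184 with array weights, 829 and 1085 with a replicate block, and 240 and 313 for a change tested against a 2-fold minimum; trended and robust moderation, cyclic loess, mean of probe sets and the filter on low values gave 1284 to 1572 and 1663 to 1944. Leaving out 1 array gave 575 to 3273 higher and 840 to 3435 lower, lowest without a leukemia array and highest without colony array 1. The replicate numbers did not pair the samples, so fewer calls under the block are not a weaker effect. Of 88 named genes that were called, 61 kept the call whichever array was left out and 27 lost it without at least 1. Of 242 called list members and microRNA genes, 143 kept it; 0 calls were lost without colony array 1, 59 without array 2, 26 without array 3 and 89 to 92 without a leukemia array. With 3 arrays a group and unequal spread, many calls depend on single arrays, and a gene that was not called is not shown to be equal.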

Other observations

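These families were picked after their values were seen and carry no test of their own beyond the calls over all genes. Of 6 T cell receptor alpha and beta segment genes 4 fell, and all 6 lay below leukemia on every colony array, with a median difference of -3.14. Of 21 prolactin family genes 1 was called higher, beside 6.15% of all genes. Over 2-fold above the leukemia mean were 4 on colony array 1, 4 on array 2 and 0 on array 3. The 5 Zscan4 genes, a family active in embryos at the 2-cell stage and in some embryonic stem cells, averaged 4.81, 4.73 and 6.01 on colony arrays 1, 2 and 3. The 7 Serpinb9 genes averaged 6.31, 6.99 and 5.29 on the colony arrays, with 1 called higher. Above leukemia on every colony array were 5 of them, beside 16.4% of all genes. The 9 measured genes of the miR-17 and miR-106a clusters averaged 3.80, 5.81 and 7.09 on the colony arrays, and none was called. The 11 miR-669 genes averaged 4.42, 5.87 and 6.03, and none was called.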
